A study of Homo sapiens with 4 samples.

Results

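The long arm of chromosome 8 (8q) was described through its H3K27ac enhancer regions in Kasumi-1 cells. The members are all regions on chromosome 8 that start above 46 Mb on hg38, 1505 of the 45672 regions in 4 deposited tables. The arm was chosen by its numbers of regions in the sparse pair of tables described here. Kasumi-1, an established line from a patient with acute myeloid leukaemia, carries the t(8;21) translocation, and CRISPR/Cas9 was applied with a non-targeting guide (sgNT, genotype WT, 2 samples) or a guide against SETD8 (sgSETD8, genotype SETD8 knockout, 2 samples). SETD8 monomethylates histone H4 at lysine 20. Acetylation of lysine 27 on histone H3 (H3K27ac) was mapped by CUT&Tag, where a transposase is guided to marked chromatin by an antibody; the series' design text names H3K27me1, but every sample label names H3K27ac. The labels do not say whether the edited cells were a clone or a pool, nor whether samples came from separate cultures. Identifiers within the tables sort them into 2 pairs: a sparse pair with few short regions and a dense pair with many long ones, each with 1 sgNT and 1 sgSETD8 table.

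Chromosome arm 8q carries several genes that matter in myeloid leukaemia. RUNX1T1, which encodes a corepressor, is the partner that t(8;21) fuses to RUNX1, so the translocation cuts the arm inside this gene and moves everything on its telomere side to the derivative chromosome 21. Farther out lies MYC, the growth-promoting transcription factor, followed by the non-coding genes PVT1 and CCDC26, a stretch known for distant blood enhancers of MYC. H3K27ac marks active enhancers and promoters, and long stretches of neighbouring acetylated peaks are often counted as 1 large enhancer.

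The sparse tables held 133 (sgNT) and 345 (sgSETD8) regions of the arm, and the dense ones 464 (sgNT) and 563 (sgSETD8). These were 2.56% (exact 95% interval 2.15 to 3.03) and 4.74% (4.26 to 5.26) of the sparse tables, and 3.06% (2.79 to 3.35) and 3.12% (2.87 to 3.38) of the dense ones. The intervals cover the counting of regions only. Since these counts chose the arm they are a description. The smallest two-sided p that an exact permutation of 2 tables against 2 allows is 0.333. No p-value is therefore given for any comparison. The first 8q region of a table started between 46094429 and 47117716, and the last region before the 46 Mb boundary ended at 43512297 or earlier. The tables hold no read counts, so depth is unknown. The value of a region is the authors' signal, a density per bp times the width, whose scaling is not stated.

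Covered length on 8q was larger with sgSETD8 in both pairs. It was 0.226 Mb in sgNT and 0.313 Mb in sgSETD8 in the sparse pair, a ratio of 1.39. This sparse length is the summed width of the regions whose number chose the arm, so it is a description and no separate result. In the dense pair it was 4.14 Mb in sgNT and 5.82 Mb in sgSETD8, a ratio of 1.41. The mean log2 ratio was 0.48 ± 0.01 (SD, n = 2 pairs). Over regions at least 500 bp wide the pairs differed, with log2 ratios of 0.13 (sparse) and 0.49 (dense). Outside 8q the ratio of covered length was 0.874 (sparse) and 1.14 (dense). Relative to those, the log2 ratio on 8q was 0.67 (sparse) and 0.30 (dense), a mean of 0.48 ± 0.26 (SD, n = 2 pairs). The pairs thus lay close together only before the rest of the genome was taken into account. Among 41 chromosome arms with at least 20 regions in each table, 8q stood at place 4 for the ratio of covered length in the sparse pair and at place 3 in the dense pair. The number of regions behaved differently: its ratio on 8q was 2.59 in the sparse pair, place 3 after 5p and 4p, but 1.21 in the dense pair, place 23 and close to the 1.19 found outside 8q. In the dense pair, then, 8q gained length and peaks more than it gained separate regions. Its constituent peaks went from 1279 to 1649, a ratio of 1.29 against 1.11 outside the arm. A joined region includes the gaps between its peaks, so covered length also depends on which peaks were joined, and the dense pair had 309 peaks per covered Mb of 8q in sgNT and 284 in sgSETD8. The tables hold no input library, so the acetylation of each copy and the number of copies of the arm cannot be told apart.

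**Figure D1:**
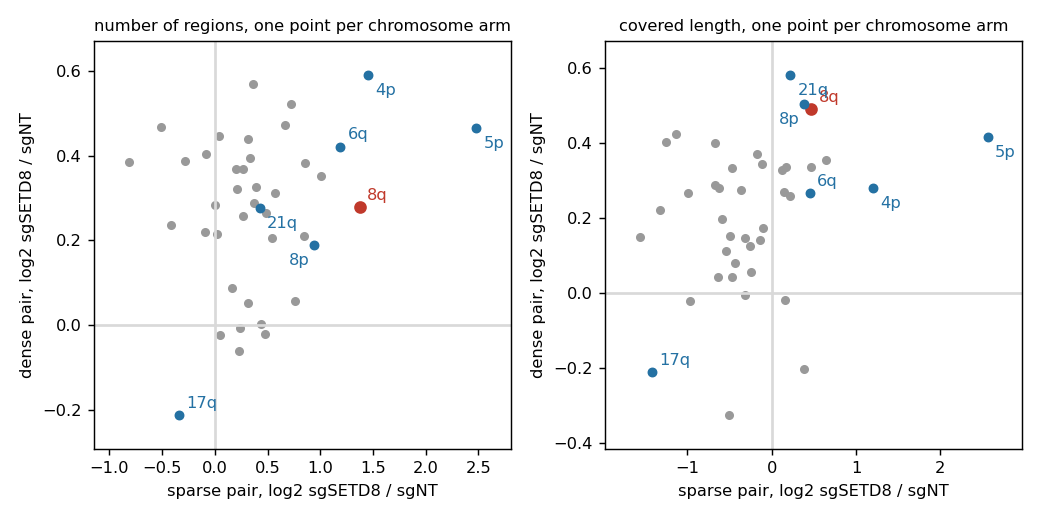
Log2 ratio of sgSETD8 to sgNT for each chromosome arm with at least 20 regions in each table, with the sparse pair on the horizontal and the dense pair on the vertical axis, for the number of regions (left) and covered length (right). Arm 8q, in red, lies far to the right for sparse region number at 1.38 but at 0.28 on the dense axis, and at 0.47 and 0.49 for covered length.

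Regions of 8q also differed from the rest of the dense tables in signal density, in both groups. The median density on 8q was 0.873 per bp in sgNT and 0.731 in sgSETD8, 1.15 and 1.24 times the median of each whole table, which put 8q at places 4 and 3 of the 41 arms. In the sparse tables the 8q median was 0.891 and 0.969 times the table's, places 33 and 27. Median width on 8q was 1870.5 bp in dense sgNT and 1791 bp in dense sgSETD8, wider than the 1515 and 1499 bp of the whole tables. It was 529 bp in sparse sgNT and 337 bp in sparse sgSETD8. The regions lay farther from the nearest transcription start site (TSS) than all regions of their tables. The median distance was 30.3 kb and 32.7 kb in the dense sgNT and sgSETD8 tables, against 18.8 and 21.8 kb over all their regions. In the sparse tables it was 42.7 and 57.1 kb, against 23.6 and 34.1 kb. Most dense 8q regions were centred in introns, 71.1% in sgNT and 69.8% in sgSETD8, against 68.3% and 67.5% of the whole tables.

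Along the arm, the added sparse sgSETD8 regions were spread from end to end. All 11 bins of 10 Mb held more sparse sgSETD8 than sgNT regions, with the highest ratio between 130 and 140 Mb, where 7 sgNT and 48 sgSETD8 regions lay. The bin from 90 to 100 Mb, which includes RUNX1T1, had 6 and 31, at 5.17 the next highest ratio. A link to the breakpoint was not tested. On the centromere side of 92 Mb sparse regions numbered 51 with sgNT and 105 with sgSETD8, a ratio of 2.06, and on the telomere side 82 and 240, a ratio of 2.93. In the dense pair these ratios were 1.23 (141 to 174 regions) and 1.20 (323 to 389 regions). Dense covered length was larger with sgSETD8 on both sides of 92 Mb, going from 1.56 to 2.12 Mb on the centromere side and from 2.58 to 3.70 Mb on the telomere side. The dense bins with the highest length ratios were 80 to 90 Mb (83.8 to 202 kb) and 70 to 80 Mb (168 to 337 kb), and no dense bin lost length.

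**Figure D2:**
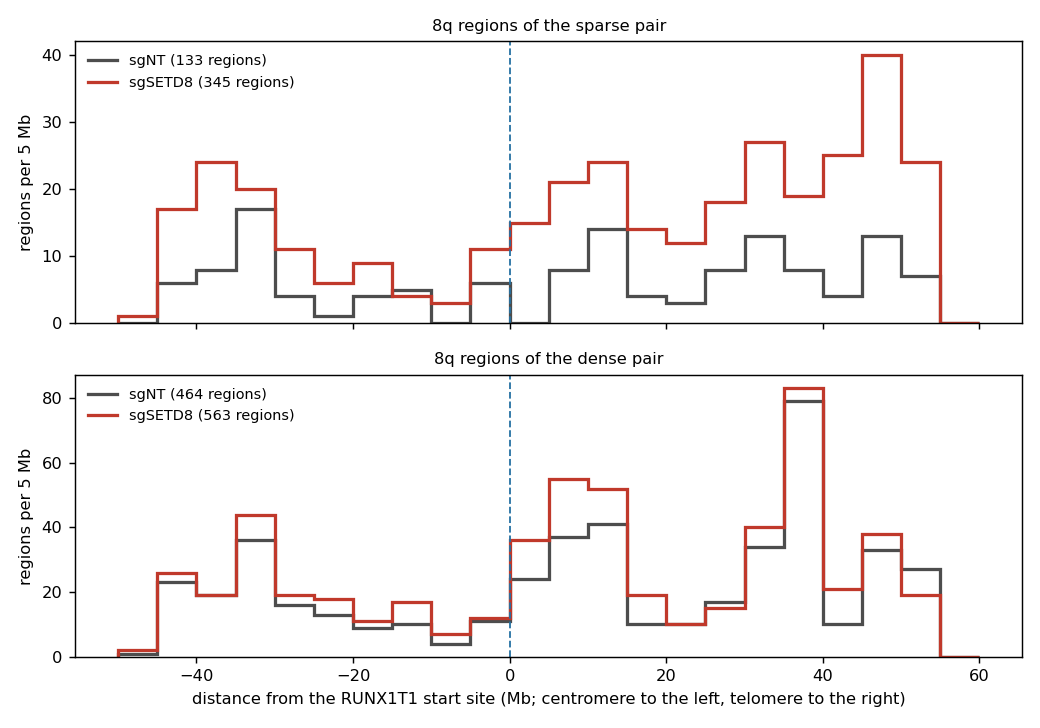
Number of 8q regions per 5 Mb against the distance from the RUNX1T1 start site, for the sparse pair (top) and the dense pair (bottom), with sgNT in grey and sgSETD8 in red. The sparse sgSETD8 line (345 regions) lies above the sgNT line (133 regions) over most of the arm, while the 2 dense lines follow each other, with the highest dense bin on the telomere side at PVT1 and CCDC26.

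At the breakpoint gene RUNX1T1 the dense locus covered 10.1 kb with 4 peaks in sgNT and 20.5 kb with 5 peaks in sgSETD8, at density 0.652 and 0.433 per bp. The sparse sgNT table had no region assigned to RUNX1T1, and the sparse sgSETD8 table had 2 of together 0.866 kb, at ranks 2880 and 3515. The better-ranked of these, at chromosome 8, 92014539 to 92015012 in an exon, lay inside the dense sgSETD8 region and outside the dense sgNT region. The other, at 92230876 to 92231267, was intergenic and overlapped no dense region. Regions assigned to RUNX1T1 thus covered more length in both sgSETD8 tables, with 1 table a group in each pair. The density of the dense locus was lower with sgSETD8, and the intergenic sparse region is assigned by nearest TSS only. Of the 219 8q genes with a sparse sgSETD8 region, 159 had none in sparse sgNT.

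Most sparse sgSETD8 regions of 8q stood alone. Of the 345, 312 (90.4%, exact 95% interval 86.8 to 93.3) had no overlapping sparse sgNT region, where 85.1% of all sparse sgSETD8 regions had none. Of the 133 sparse sgNT regions, 100 (75.2%, 67.0 to 82.3) had no sgSETD8 counterpart, against 79.1% over the whole table. The other pair offers a check at the same positions. A dense region of either group overlapped 117 of the 133 sparse sgNT regions (88.0%, 81.2 to 93.0), against 79.0% of that whole table, the second highest share of the 41 arms. It overlapped 84 of the 345 sparse sgSETD8 regions (24.3%, 19.9 to 29.2), against 29.3% of that table. Counting only regions found in a dense table, the sparse pair went from 117 sgNT to 84 sgSETD8 regions, the opposite direction to the full count. Over the whole sparse tables this count went from 4095 to 2132, a larger relative fall than on 8q. Among regions at least 500 bp wide the counts were 68 and 72 on 8q, against 2659 and 1642 over the whole tables. The sparse sgSETD8 excess on 8q thus lay mostly in short regions that the dense tables did not hold. The shortest width of the table was that of 103 of the 345 regions (29.9%) in sgSETD8 and of 19 of 133 (14.3%) in sgNT. Over the whole tables these shares were 29.7% and 10.9%, so 8q was close to its table in sgSETD8.

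The sparse sgSETD8 regions also differed in sequence class by the deposited annotation. Regions centred on a repeat made up 203 of 345 (58.8%, interval 53.4 to 64.1) in sparse sgSETD8 and 40 of 133 (30.1%, 22.4 to 38.6) in sparse sgNT. The whole tables had 51.3% and 30.2%. LINE elements, the long interspersed retrotransposons, held 82 sgSETD8 regions (23.8%) and 14 sgNT regions (10.5%), against 19.8% and 10.2% of the whole tables. Simple repeats held 21 (6.09%) and 1 (0.752%), against 7.53% and 1.06% of the whole tables. Among the 312 sgSETD8 regions without a counterpart 61.9% were centred on a repeat, against 30.3% of the 33 with one. A dense region was overlapped by 53 of the 312 and by 31 of the 33. Over the genome 1156 of the 6193 lone sparse sgSETD8 regions overlapped one, so the low overlap of lone regions was not particular to 8q. The dense tables were alike, with 38.6% of sgNT and 40.7% of sgSETD8 regions of 8q centred on a repeat. Intergenic regions were 39.1% and 47.2% of the sparse sgNT and sgSETD8 regions of 8q and 25.2% and 25.8% of the dense ones, a mean difference of 4.34 ± 5.38 percentage points (SD, n = 2 pairs), so the difference was smaller than its spread. Over the whole tables the intergenic shares were close to these, 37.1% and 46.9% (sparse) and 24.5% and 25.4% (dense).

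**Figure D3:**
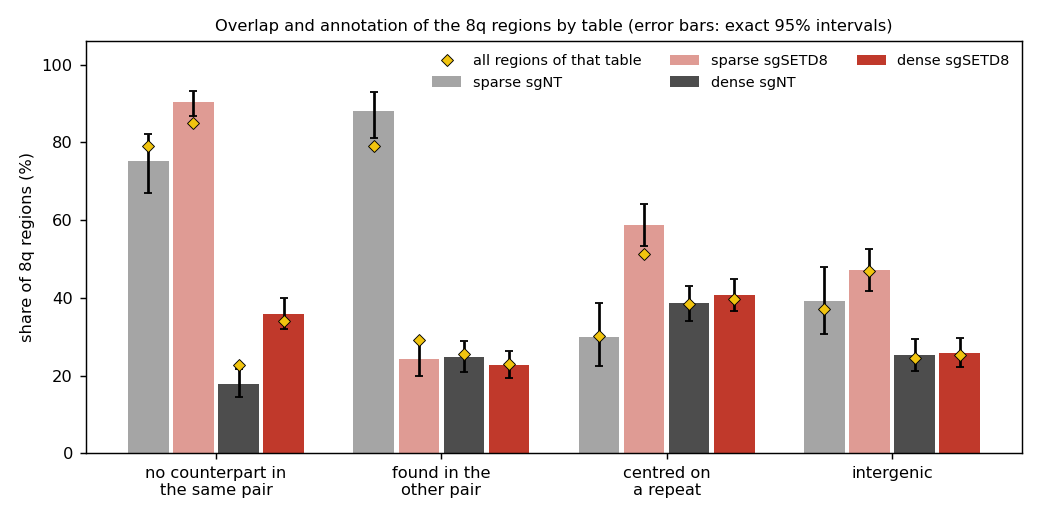
Share of the 8q regions of each table that had no counterpart in the other table of the pair, overlapped a region of the other pair, were centred on a repeat, or were intergenic, with exact 95% intervals; diamonds give the same share over all regions of that table. Sparse sgSETD8 had the highest shares of lone regions, 90.4%, and of regions on repeats, 58.8%. Its share found in the other pair was 24.3%, while sparse sgNT had 88.0%. For the dense tables this share counts overlap with the sparse tables, which cover far less of 8q, so it cannot be compared with the sparse shares. The dense tables differ mainly in lone regions, 17.9% in sgNT and 35.9% in sgSETD8.

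Genes that mark tissues other than blood were counted next. Of 38 such genes on 8q, 17 had a sparse region in either group, and 16 of these 17 (94.1%) had more regions in sgSETD8 and none had fewer, 5 sgNT against 33 sgSETD8 regions in all. The same count was 72.1% over all 8q genes and 51.3% over all genes with a sparse region. Of the 17, 14 had a sparse region in sgSETD8 only and so could only count as having more. These counts are also part of the sparse counts that chose the arm. COL22A1, a collagen of tissue junctions, had 0 (sgNT) and 5 (sgSETD8) sparse regions and no region in the dense pair. The adenylyl cyclase gene ADCY8, the developmental regulator EYA1 and the potassium channel subunit gene KCNV1 had 0 and 2 in the sparse pair, and likewise no dense region. A dense region was present at 7 of the 38 genes, 15 sgNT against 16 sgSETD8 regions, with 3 genes higher and 3 lower. The 21 members with no sparse region include PENK, SOX17, FABP4 and TNFRSF11B. The part that the many short regions of the sparse sgSETD8 table play in these counts was not tested.

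The best-ranked sparse sgSETD8 regions of 8q without a sparse counterpart differed in whether a dense region lay there. One lay in ZC3H3, which encodes a zinc finger protein of mRNA export (chromosome 8, 143441870 to 143455091, intron, 13.2 kb), and overlapped a dense sgNT region but no dense sgSETD8 region. Those at COL22A1 (138870195 to 138883147, intron, rank 175), the surface protein genes LY6H (143122963 to 143124588, rank 225) and LY6D (142808408 to 142809194, rank 459), FER1L6 (123895824 to 123907451, rank 567), the photoreceptor gene RP1 (54848839 to 54859703, rank 578) and DENND3 (141171588 to 141172124, rank 583) overlapped no dense region. A region in CCDC26 (129415359 to 129422532, 7.17 kb, rank 530) overlapped both dense tables. In sparse sgNT, the 8 best-ranked lone regions, at ST18, CHD7, ZFPM2, LYN, YWHAZ, CSMD3, SLC45A4 and TOX, all overlapped both dense tables.

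Most of the strongest dense enhancers of the arm overlapped regions of all 4 tables. Exceptions among those named here were CHD7, whose dense regions met none of sparse sgNT, and the dense sgNT region of TOX, which met none of sparse sgSETD8. The region in ST18, a zinc finger factor gene best known from neurons, ranked 35 in dense sgNT (52116169 to 52186883, 70.7 kb, 19 peaks) and 27 in dense sgSETD8 (67.3 kb, 12 peaks), and 94 and 98 in the sparse sgNT and sgSETD8 tables. The region of AGO2, which encodes the Argonaute protein that cuts RNA targets, ranked 42 and 32 in the dense tables (109 kb with 22 peaks, and 105 kb with 25 peaks) and 205 and 85 in the sparse tables. Next to it came DENND3, a regulator of Rab GTPases, at dense ranks 50 and 49, and PTK2, which encodes focal adhesion kinase, at 72 and 65. CHD7, a chromatin remodeller, ranked 73 in sgNT and 88 in sgSETD8. The Src-family kinase gene LYN (105 kb, 27 peaks) ranked 94 and the HMG-box factor gene TOX (109 kb, 30 peaks) ranked 127 in dense sgNT. Further sparse regions high in both groups were those of MRPL15, a mitochondrial ribosomal protein gene, at ranks 63 and 152, and TSNARE1 at ranks 269 and 102. LY96, the partner of the endotoxin receptor TLR4, held the best sparse sgSETD8 rank of the arm at 58. Of 898 separate stretches of 8q covered by any table, 36 were covered in all 4, while 259 (28.8%) were covered by sparse sgSETD8 alone, against 19.2% of such stretches over the genome.

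The dense pair was then compared locus by locus, after joining the regions of both tables that lay within the stitching distance, a step added after values were seen. On 8q this gave 521 loci, of which 298 had a region in both groups. With sgSETD8, 94 of the 521 loci (exact 95% interval of the share 14.8% to 21.6%) were at least 2-fold longer, against 14.8% of all dense loci. At least 2-fold longer in sgNT were 28 (5.37%, 3.60 to 7.67), against 7.43% of all loci. Loci found in sgSETD8 only numbered 167 (32.1%, background 27.8%) and in sgNT only 56 (10.7%, background 12.7%). The median ratio of covered length at loci of both groups was 1.33 on 8q and 1.10 over the genome. Rises added 2092 kb at 384 loci and falls came to -416 kb at 137 loci. These include the loci found in 1 group only, and no such count over the genome stands beside them. Dense covered length outside 8q was also larger with sgSETD8, by a ratio of 1.14. The 10 largest rises made up 22.2% of the added length.

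Rises and falls here are differences between 1 table a group, with no test. The ANGPT1 locus (chromosome 8, 107301817 to 107505282, intron) covered 137 kb with 36 peaks in sgNT and 203 kb with 66 peaks in sgSETD8. Its best region moved from rank 566 to rank 23, the best of the arm, and the density of the locus went from 0.607 to 0.691 per bp. ANGPT1 encodes angiopoietin 1, a ligand of the TIE2 receptor on stem and endothelial cells. DEPTOR, an inhibitor of mTOR signalling, had both neighbouring loci longer: 70.5 kb with 16 peaks against 104 kb with 25 peaks (119853152 to 119956950), and 48.0 kb with 12 peaks against 119 kb with 24 peaks (119970471 to 120089515). The latter went the other way in the sparse pair, with 10.8 kb in sgNT and 1.93 kb in sgSETD8. SNTB1, which encodes a syntrophin of the dystrophin complex, went from 50.4 kb with 12 peaks to 110 kb with 22 peaks (120701815 to 120811518), and from rank 1114 to 121. Loci of ZFPM2, which encodes a cofactor of GATA factors, went from 30.1 to 66.0 kb (8 to 12 peaks) and from 79.0 to 110 kb (14 to 26 peaks). At these loci the number of peaks was higher together with the length.

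At the next loci 3 to 5 peaks were added. NCOA2, a coactivator of nuclear receptors, went from 28.1 to 74.5 kb with 9 and 12 peaks, and ASPH, an aspartate hydroxylase gene, from 56.7 to 96.0 kb with 12 and 17 peaks. The OSGIN2 locus (89889533 to 89940174) covered 0.825 kb with 2 peaks in sgNT and 50.6 kb with 7 peaks in sgSETD8, at a density of 1.15 and 0.299 per bp. A second TOX locus went from 9.48 to 41.6 kb (3 to 6 peaks). The largest falls were at BAALC, a gene named for its expression in brain and acute leukaemia (31.3 kb with 5 peaks to 3.94 kb with 3 peaks, 103121845 to 103164874), at the lipoprotein receptor-related gene LRP12 (38.3 to 17.8 kb, 9 to 5 peaks), at NSMCE2, a SUMO ligase gene of the SMC5/6 complex (31.6 to 14.1 kb, 6 peaks in both), and at the transporter gene SLC45A4 (19.9 to 3.52 kb, 4 to 2 peaks). The sparse tables covered little of these loci: at ANGPT1 they held 0.465 kb in sgNT and 0.274 kb in sgSETD8, and at SNTB1 0 and 0.427 kb. Of the 94 loci that were longer with sgSETD8, 24 held a sparse sgNT and 18 a sparse sgSETD8 region.

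**Figure D4:**
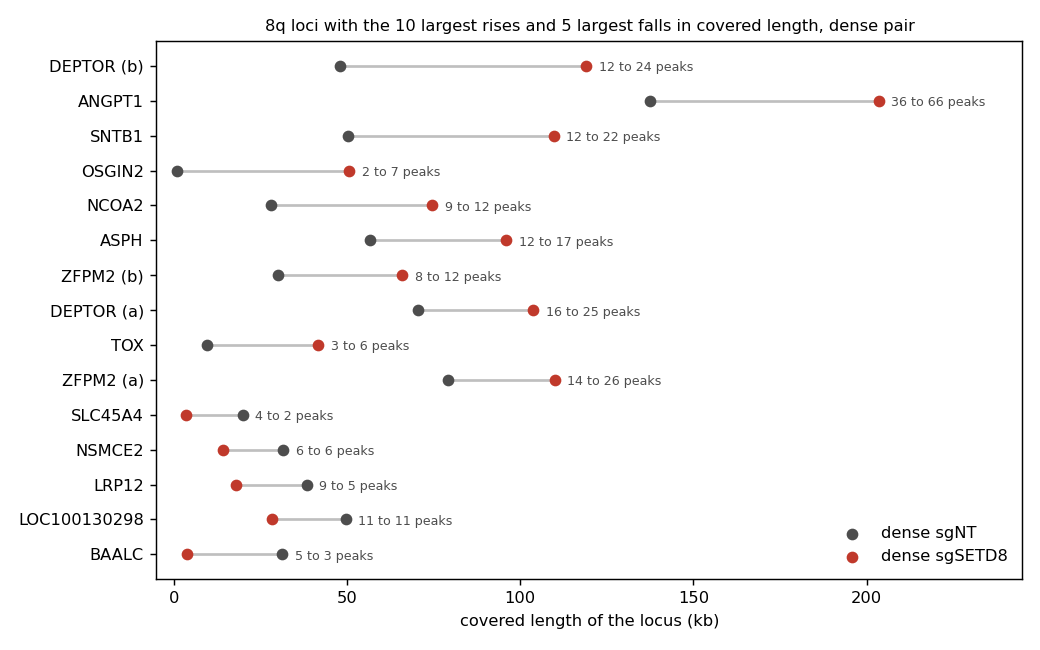
Covered length in kb of the 8q loci with the 10 largest rises and 5 largest falls in the dense pair, sgNT in grey and sgSETD8 in red, with the number of peaks in sgNT and sgSETD8 beside each; letters set apart loci of 1 gene, and a locus with no named gene carries its annotation identifier. ANGPT1 reached 203 kb in sgSETD8 from 137 kb, and BAALC covered 31.3 kb in sgNT and 3.94 kb in sgSETD8.

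The stretch around MYC, PVT1 and CCDC26 held 78 of the 464 dense sgNT and 81 of the 563 dense sgSETD8 regions. PVT1 alone accounted for 55 and 54 of them, nearly all single peaks that had not been joined, 53 in each table. The PVT1 locus (127788970 to 128002659) covered 137 kb in sgNT and 133 kb in sgSETD8, with 55 peaks in each, and a second PVT1 locus (128018623 to 128067825) covered 33.7 and 48.0 kb. At MYC itself the locus over the gene (127735027 to 127743496) covered 5.66 kb in sgNT and 7.50 kb in sgSETD8, with density 1.14 and 1.11 per bp. A second MYC locus (127758558 to 127768266) covered 1.81 and 9.08 kb. Neither sparse table had a region assigned to MYC. CCDC26 held 5 dense sgNT regions of together 104 kb with 23 peaks, and 8 dense sgSETD8 regions of 127 kb with 37 peaks, by the transcript that holds the region's centre. In the sparse pair it held 2 regions of 12.2 kb in sgNT and 4 of 35.8 kb in sgSETD8. Counted by nearest TSS instead, CCDC26 held 4 dense sgNT regions of 96.3 kb and 3 dense sgSETD8 regions of 99.9 kb, so the size of its dense rise depends on that choice.

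Signal density was compared where both dense tables had a region at the same place, each covering at least 90% of the other. There were 50 such regions on 8q and 1769 in the genome. Since the scaling is unknown, the genome median of the log2 ratio, -0.26, was subtracted. The centred ratio of sgSETD8 to sgNT had a median of 0.10 on 8q (binomial 95% interval of the median 0.02 to 0.15) and an SD of 0.26 over regions. It was above 0 at 33 of the 50 regions (66.0%), against 50.0% of all matched regions. The median shift was smaller than the SD of 0.24 of single regions over the genome, which describes regions and not the uncertainty of a median. The interval treats regions as separate, though 9 of the 50 lie in PVT1, and does not cover variation between samples. Arm 8q stood at place 6 of 41 arms. On the telomere side of 92 Mb the median was 0.15 over 34 regions, and on the centromere side 0.05 over 16.

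Within the MYC stretch, PVT1 and CCDC26 went apart. The 3 matched CCDC26 regions had centred log2 ratios of 0.38, 0.50 and 0.91. The region at 129415323 to 129423342 had a density of 0.748 per bp in sgNT and 1.17 in sgSETD8, and that at 129535849 to 129594382 had 1.75 and 1.90, moving from rank 87 to 41. The 9 matched PVT1 regions ranged from -0.29 to 0.15 with a median of -0.08, and the lowest of them (127806043 to 127812435) had densities of 2.74 and 1.87. All 3 CCDC26 values lay above all 9 PVT1 values. Among the matched regions in the best-ranked 5000 of both tables, the others at the upper end were FAM91A1 (0.45) and NSMCE2 (0.35), and at the lower end CSMD3 (-0.62) and CHD7 (-0.28).

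**Figure D5:**
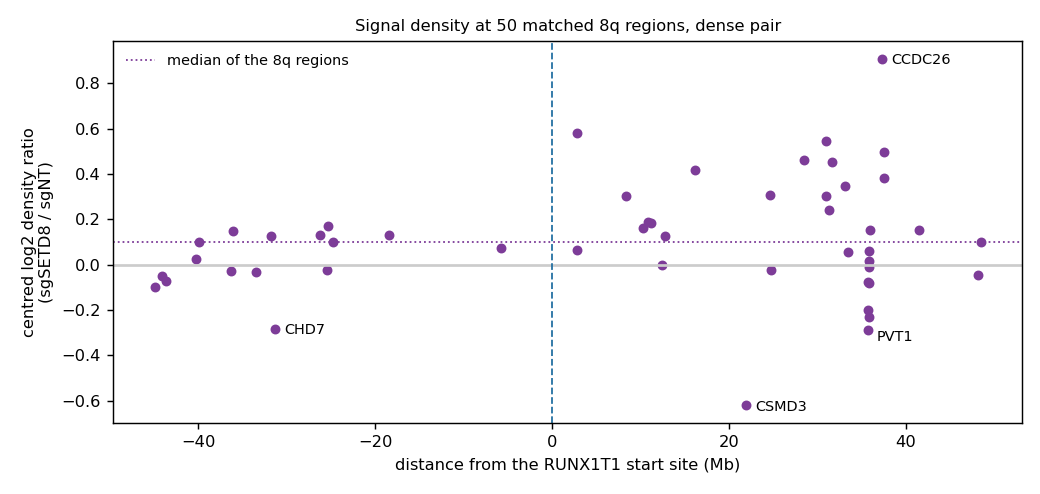
Centred log2 ratio of signal density, sgSETD8 to sgNT, at the 50 matched 8q regions of the dense pair against the distance from the RUNX1T1 start site in Mb; the dotted line is the 8q median of 0.10 and the solid line the genome median. CCDC26 lies highest at 0.91 and CSMD3 lowest at -0.62, with the PVT1 regions around and below 0.

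Dense regions of 1 group alone were low in the ranking. In sgSETD8, 202 of 563 regions (35.9%) had no sgNT counterpart, against 34.0% of the whole table. In sgNT 83 of 464 (17.9%, 14.5 to 21.7) had no sgSETD8 counterpart, against 22.7%. Their median widths were 564.5 bp in sgSETD8 and 447 bp in sgNT, and 14 and 7 of them overlapped a sparse region. Over the genome 438 of the 6143 lone dense sgSETD8 regions and 241 of the 3442 lone dense sgNT regions did. The best-ranked sgSETD8 regions of this kind lay in TATDN1, a putative DNase gene (124513977 to 124536861, 22.9 kb, rank 2012), in TRAPPC9, a vesicle-tethering subunit gene (139809636 to 139824375, 14.7 kb, rank 2295), and near NDRG1, a stress-induced gene (133351131 to 133370072, 18.9 kb, rank 2696). SNHG6, SNORA72, the lipid phosphatase gene PIP4P2, CCDC26 and PABPC1 followed, at ranks 3166 to 3945. The best-ranked sgNT regions without a counterpart were lower still, LAPTM4B at 4756 and CSMD3 at 5652. TCEA1, SGK3, RAD54B, MCM4, LRP12 and PTK2 followed, and the TCEA1 region lay 267 bp from an sgSETD8 region. Both groups' lone regions were thus small beside the shared ones, whose median widths were 3620 bp in sgNT and 6445 bp in sgSETD8.

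Genes were taken from the deposited annotation, which assigned 375 genes to 8q regions. Regions were assigned to 92 sgNT and 219 sgSETD8 genes of the sparse pair, and the dense tables had 213 and 247. More regions with sgSETD8 were held by 181 of 251 sparse 8q genes (72.1%, background over all genes 51.3%) and fewer by 39 (15.5%, background 33.4%). Of these 181 genes, 159 had sparse regions in sgSETD8 only. The arm was chosen by its sparse counts, so this excess over the background is a description and no separate result. In the dense pair 116 of 271 had more (42.8%, background 37.3%) and 56 fewer (20.7%, background 21.2%). Both sgSETD8 tables but neither sgNT table held 16 genes (4.27%, background 2.85%), and both sgNT tables but neither sgSETD8 table held 0 (background 0.858%). Among the 16 are ALKAL1, a ligand of the ALK receptor, ASAP1, FER1L6, LRRCC1, LY6H, OC90, RIMS2, RSPO2, an activator of Wnt signalling, ST18 and ZFAT-AS1. ST18 is among them only by nearest TSS, since its strong shared enhancer is nearer to a non-coding gene. The genes named here covered 0.368 to 6.68 kb each in dense sgSETD8. By position, both sgSETD8 tables alone covered 7 of the 898 stretches of 8q (0.780%, against 0.514% over the genome), and both sgNT tables alone 3 (0.334%, against 0.503%).

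Transcription factor and chromatin genes with blood roles had 14 of 20 members with a dense region. Of these 5 had more and 3 fewer with sgSETD8, and in the sparse pair 7 of 10 had more and 2 fewer. Over all 8q genes the share with more was 42.8% (dense) and 72.1% (sparse), and over all genes 37.3% and 51.3%, so these shares (35.7% and 70.0%) were near or below those of the arm. ZHX2, a zinc finger and homeobox repressor gene, had 0 sgNT and 2 sgSETD8 sparse regions and 1 dense region in each group. TOX had 1 and 0 sparse and 4 and 5 dense regions, and ZBTB10 1 and 0 sparse and 3 and 2 dense regions. Of 25 signalling and trafficking genes, 9 of 21 had more and 4 fewer in the dense pair, and 8 of 17 more and 5 fewer in the sparse pair. The shares with more, 42.9% and 47.1%, compare with 42.8% and 72.1% over all 8q genes. STK3, a kinase of the Hippo pathway, had more in both pairs, 0 sgNT and 3 sgSETD8 sparse regions and 2 and 8 dense regions. NDRG1 went the same way, with 0 and 1 sparse and 2 and 4 dense regions. PAG1, an adaptor that holds the kinase CSK at the membrane, and the sialyltransferase gene ST3GAL1 went opposite ways in the pairs, each with 3 sgNT and 0 sgSETD8 sparse regions but 2 and 3, and 1 and 2, dense regions.

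Cell cycle, replication and repair genes had 12 of 17 members with a dense region, 3 with more and 4 with fewer in sgSETD8, and 6 with a sparse region, 5 with more and 0 with fewer. The sparse share with more was 83.3%, against 72.1% over all 8q genes, and the dense 3 of 12 compare with 42.8%. CCNE2, which encodes cyclin E2, had 0 and 1 sparse regions and 1 dense region in each group. MTBP and UBE2V2 had 0 and 2 sparse regions and 1 dense region in each group. RAD54B, a recombination gene, had 0 and 1 sparse but 2 and 1 dense regions. Mitochondrial genes had 17 of 21 members with a dense region, 8 with more and 2 with fewer (47.1% and 11.8%), and 4 with a sparse region, 2 with more and 2 with fewer. Over all dense 8q genes 42.8% had more and 20.7% fewer, and over all sparse 8q genes 72.1% and 15.5%. OXR1, an oxidation resistance gene, had 0 and 3 sparse and 1 and 3 dense regions. The fatty acid oxidation gene DECR1 had 2 and 0 sparse but 1 and 2 dense regions, LACTB2 1 and 0 sparse but 0 and 2 dense regions, and ARMC1 1 and 0 dense regions. The best dense sgSETD8 rank at OXR1 was 5331.

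RNA and translation genes had 7 of 16 members with a dense region, 4 with more and 0 with fewer, and 5 with a sparse region, 1 with more and 2 with fewer. The dense share with more was 57.1%, against 42.8% over all 8q genes, and the sparse 1 of 5 compares with 72.1%, both over few genes. The initiation factor gene EIF3E had 1 and 0 sparse but 2 and 3 dense regions, EXOSC4 0 and 1 dense regions, and PABPC1 0 and 1 sparse regions. Of 12 non-coding genes in the desert around MYC, 3 had a sparse region, 2 with more in sgSETD8 and 0 with fewer, and 2 had a dense region, 0 with more and 1 with fewer. The dense gene with fewer was CCDC26, by nearest TSS. CASC19 and PCAT1 had 0 and 1 sparse regions and no dense region. The median difference in regions per gene was 0 in the dense pair, both over all 8q genes and over all genes, and 1 in the sparse pair for both. Of the members named for these lists, STK3, NDRG1 and OXR1 had more sgSETD8 regions in both pairs, while TOX, PAG1, ST3GAL1, DECR1, LACTB2 and EIF3E had fewer in the sparse and more in the dense pair. By nearest TSS, the list members ASAP1, RIMS2 and ST18, named earlier, also had more in both pairs. LYN had fewer in the sparse and more in the dense pair.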

How the data were processed

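H3K27ac CUT&Tag of 4 Kasumi-1 samples (2 sgNT, 2 sgSETD8) is deposited as 4 tables of stitched regions. The submitters' processing notes list cutadapt, Bowtie2 and the build hg38; for peak calling, stitching and annotation no tool is named there. The deposited values are a signal, a density with at most 4 decimals per bp times the region's width. Groups were read from the guide named in the region identifiers; sparse sgNT identifiers name only the cell line. Which sample of a group a table belongs to is unknown, and p-values are not given. Value columns without a group numbered 0.

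Overlaps (at least 1 bp) used bedtools 2.31.1, and Clopper-Pearson intervals scipy 1.17.1, with Python 3.11.15, numpy 2.4.6, pandas 2.3.3 and matplotlib 3.10.9. Functions were tested on simulated tables. Arms were split at rounded centromere positions. A region's gene is the transcript of the deposited annotation that holds its centre (1028 of 1028 accessions matched RefSeq, GRCh38), otherwise the nearest TSS; gene counts use the nearest TSS. Named genes were RUNX1T1, MYC, the 8 best-ranked regions of each table and the 8 best-ranked without a counterpart, genes seen in 1 group of both pairs, the 5 highest and 5 lowest matched densities, and up to 4 members of each of 7 gene lists, passing over LOC, LINC and MIR names; 2 genes that the rule names are not reported here. Loci with the largest length changes were named after their values were seen. The members and lists were chosen with earlier results of these data known.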

Additional observations from a re-analysis of the deposited data

How the results depend on the processing

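Of 50 alternative values, 36 stayed within the spread of the reported value, 12 moved and 2 reversed. The cause was not tested unless given. For ratios and differences taken per pair, that spread is the SD of 2 pairs. Leaving out 1 pair was therefore bound to stay within it, since both pairs had the same sign. A wide SD also lets large changes count as staying, so the 36 do not measure robustness. The mean log2 ratio of 8q region number, 0.83 ± 0.78 (SD, n = 2 pairs), turned to -0.10 when sparse regions had to overlap a dense region, a setting chosen after seeing the data, since the sparse pair then went the other way (-0.48). The whole sparse tables also went that way in this setting, with 4095 sgNT and 2132 sgSETD8 regions. The mean log2 ratio on 8q ranged from 0.28 without the sparse pair to 1.38 without the dense pair, and was 0.20 at widths of at least 500 bp. The gene ratio, 0.73, ranged from 0.21 to 1.25 in the same way. Covered length (log2 0.48) was 0.43 in the better-ranked 50% of each table, 0.39 in the best-ranked 5000 and 0.31 at 500 bp or wider (0.13 sparse, 0.49 dense), and 0.49 and 0.47 with either pair left out; these settings were added later. The telomere-side share, 3.70 ± 5.96 percentage points higher in sgSETD8, was -0.49 with the split at 100 Mb. Shares without a counterpart, with overlap of at least 50% of a region, were 86.5% in sparse sgNT, 28.4% in dense sgNT and 56.5% in dense sgSETD8. In the better-ranked 50% of each table they were 51.6% and 81.4% in sparse and 1.54% and 12.9% in dense sgNT and sgSETD8, since lone regions rank low. Sparse regions of at least 500 bp were found in the dense pair at 95.6% in sgNT and 45.8% in sgSETD8. The median density ratio stayed between 0.10 and 0.13. No paired analysis was possible because the labels give no replicate numbers, only the dense identifiers share a number, and no value comes from a test; ratios were taken within each pair of tables. Depth is unknown, so no region's absence can be read as loss of acetylation.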

Other observations

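The short arm and the fusion partner's arm were set beside 8q. In the dense pair the 3 highest ratios of covered length among 41 arms were those of 21q, which holds RUNX1 (1401 kb in sgNT and 2095 kb in sgSETD8, a ratio of 1.49), of 8p (1642 and 2326 kb, 1.42) and of 8q (1.41). In the sparse pair these arms stood at places 9, 8 and 4, with ratios of 1.17, 1.30 and 1.39. Region number did not single out 21q or 8p in the dense pair, with ratios of 1.21 and 1.14. The difference between arms was not tested, since each pair has 1 table a group.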
